A study of Mus musculus with 24 samples.

Results

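The 8 genes described here encode Nrf2 and the proteins most directly tied to it: Nfe2l2 (Nrf2), its relative Nfe2l1 (Nrf1), the Nrf2 adaptor Keap1 with its partner Cul3, the repressor Bach1, and the small Maf genes Mafg, Mafk and Maff. They were found in the table of 54752 genes by their Ensembl IDs, with the version removed, and the symbols of GENCODE M21. All 8 were present with 1 entry each. Of these, 7 passed the filter of a TPM (a level scaled by transcript length and library total) above 1 in at least 1 library, and Maff did not.

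Nrf2 is a transcription factor of the CNC family that acts as a heterodimer with a small Maf protein at antioxidant response elements. In unstressed cells Keap1 holds Nrf2 and hands it to the Cul3 ubiquitin ligase for degradation, so that much of the control of Nrf2 lies in its protein and not in its RNA. Bach1 binds the same elements with the same small Maf partners and represses genes such as Hmox1 until heme releases it, while Nrf1 is processed from the endoplasmic reticulum and is known for its control of proteasome genes. Small Maf proteins lack a transactivation domain, and in haematopoietic cells they also pair with NF-E2 p45 (Nfe2), a factor of erythroid cells and megakaryocytes.

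Bone marrow cells were taken from 24 male mice of a C57BL/6 background in 4 groups of 6. The groups were ground-control wild-type (GC-WT), flight wild-type (FL-WT), ground-control Nrf2-KO (GC-KO) and flight Nrf2-KO (FL-KO) mice. Flight mice were 8 weeks old when they were transported to the launch site, spent 31 days in space, and were sampled after landing at another place than the ground controls, so that flight and place cannot be told apart. Nrf2-KO mice lack Nrf2 in the whole body, and both genotypes were compared on the ground and after flight. The cells, from right pelvis and tibia, had been cryopreserved before RNA was isolated, and the RNA of each mouse made 1 library. Erythroid, granulocyte, B lineage, megakaryocyte, and T and NK markers were all found, and none of them was below 1 TPM in every library.

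Several facts of the whole table bear on every value below. Levels were generally lower in Nrf2-KO mice and after flight. The 12373 tested genes had a median log2 fold change of -0.24 for flight in WT mice (FL-WT vs. GC-WT) and of -0.29 for flight in Nrf2-KO mice (FL-KO vs. GC-KO). For genotype it was -0.22 on the ground (GC-KO vs. GC-WT) and -0.25 after flight (FL-KO vs. FL-WT). Between 35.4% and 59.6% of a library's TPM lay in 5 small RNAs. With these 5 left out, the all-gene medians were -0.31 and -0.21 for flight in WT and Nrf2-KO mice. For genotype they were then -0.35 on the ground and -0.23 after flight. The median-of-ratios size factor had a median of 1.32 in GC-WT and 1.04 in FL-WT mice, and of 0.991 on the ground and 0.753 after flight in Nrf2-KO mice. Across genes, the genotype difference moved with the GC content of the transcript, with a Spearman rho of -0.43 on the ground and -0.51 after flight, as a description over genes that share these libraries. Log2 fold changes are therefore also given as differences from the all-gene median on TPM as deposited, or after median-of-ratios scaling. Others are given after each library's dependence on GC content and transcript length was removed. Whether RNA quality or recovery of cells after thawing had a part in these shifts was not tested.

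None of the 7 tested genes rose in any of the 4 comparisons on TPM as deposited. In GC-KO vs. GC-WT, 6 of 7 were lower at a limma adjusted p under 0.1, against 42.9% of all tested genes, and 1 of 7, Nfe2l2 itself, was a DEG, against 3.04%. A DEG here met this adjusted p and changed at least 2-fold on the log2(TPM + 1) scale. In FL-KO vs. FL-WT, 7 of 7 were lower at this adjusted p, against 47.2% of all genes, and the 2 DEGs were Nfe2l2 and Mafg, against 8.36%. For flight in Nrf2-KO mice, 7 of 7 were lower at this adjusted p, against 53.1% of genes, with 0 DEGs among the 7 and 2.13% of all genes as DEGs lower after flight. For flight in WT mice, 4 of 7 were lower, against 39% of genes, with 0 DEGs among the 7 against 0.938% of all. At an unadjusted p under 0.05 by limma, 5 of 7 were lower after flight in WT and 7 of 7 in Nrf2-KO mice, against 41.7% and 52.2% of all genes. The plot of TPM by mouse shows all 8 genes.

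**Figure D1:**
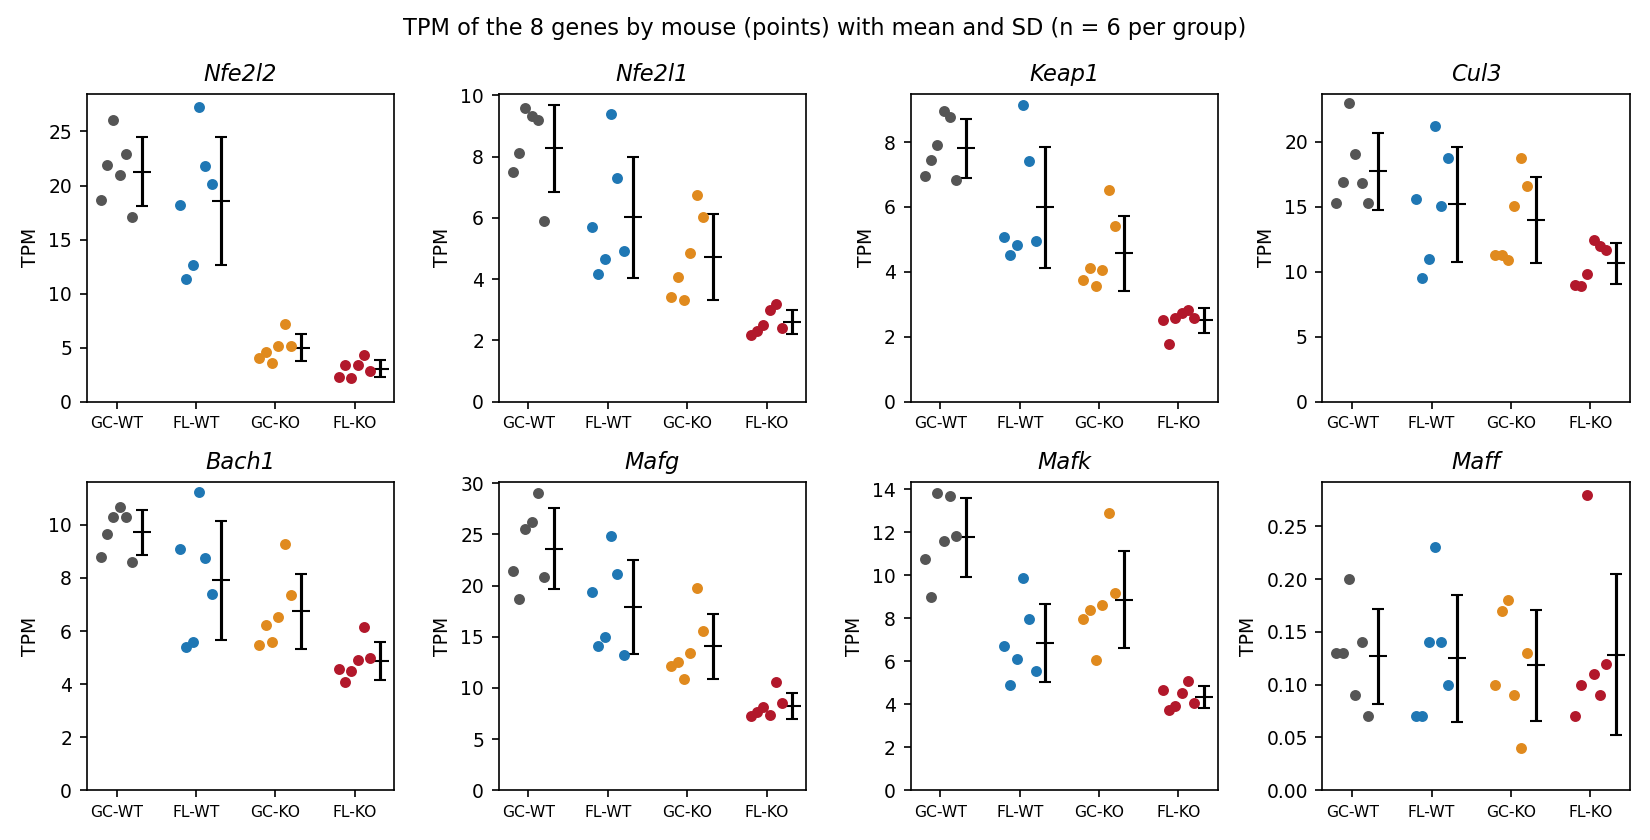
TPM of Nfe2l2, Nfe2l1, Keap1, Cul3, Bach1, Mafg, Mafk and Maff in each mouse (points), with the mean and SD of 6 mice per group (black). Nfe2l2 in all 12 Nrf2-KO mice lies below all 12 WT mice, the FL-KO group has the lowest mean for the 7 tested genes, and Maff stays at or below 0.28 TPM.

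Nfe2l2, on chromosome 2 (75675513 to 75704641, minus strand, GRCm38), is the gene targeted in the Nrf2-KO mice. GC-WT mice had 17.1 TPM at the lowest, 21.5 at the median and 26.1 at the highest, and FL-WT mice had 11.4, 19.2 and 27.3. GC-KO mice had 3.6 TPM at the lowest, 4.89 at the median and 7.18 at the highest, and FL-KO mice had 2.22, 3.11 and 4.31. Every Nrf2-KO mouse was thus below every WT mouse, and RNA of the gene was still counted in every Nrf2-KO library. Nfe2l2 fell by 1.91 on the log2 scale (SE 0.174, limma adjusted p = 2.50e-08) in GC-KO vs. GC-WT and by 2.23 (SE 0.174, limma adjusted p = 1.43e-09) in FL-KO vs. FL-WT. In TPM, the mean was 4.97 ± 1.25 (SD, n = 6) in GC-KO against 21.3 ± 3.19 in GC-WT mice, a ratio of 0.234, and after flight the ratio was 0.165. On the log2 scale only 0.0404% of tested genes had a lower value than Nfe2l2 on the ground, and 0.113% after flight. With median-of-ratios scaling the differences were -1.57 on the ground and -1.88 after flight. Removal of the GC content and length trend gave -1.68 and -1.96. The deleted part of the gene is not given in the sources used here, so the level of the whole gene checks the genotype labels only as far as the targeted allele lowers its RNA.

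Flight had no detectable effect on Nfe2l2 in WT mice, where the groups overlapped, with an exact two-sided permutation p of 0.394 for the rank sum and a log2 fold change of -0.23 (limma adjusted p = 0.301). That value is 0.011 from the median of all genes. In Nrf2-KO mice, 5 of 6 FL-KO mice were below all GC-KO mice, and Nfe2l2 fell by 0.55 (limma adjusted p = 0.0149). After median-of-ratios scaling this was -0.21 (limma adjusted p = 0.104), past the threshold no longer. The interaction of flight and genotype for Nfe2l2 was -0.32 (SE 0.246, unadjusted p = 0.203 and adjusted p = 1.0 by limma), so the 2 genotypes were not shown to differ in the effect of flight.

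The region before the start of Nfe2l2 is shown because it holds an antioxidant response element core, as do those of Mafg and Mafk. The core searched for was TGACNNNGC on both strands, within windows of 250 bases before to 50 after each RefSeq start on GRCm38.p6. Of 32851 windows in the table, 12.4% hold it, and of 14 windows of the 8 genes, 4 do, 1 each of Nfe2l2, Mafg, Mafk and Maff. Each sequence is the 250 bases before the start in the direction of the gene, with the fixed letters of the core in capitals, which read GC to GTCA where the core lies on the other strand.
Nfe2l2 (chr2:75704664-75704913, minus strand): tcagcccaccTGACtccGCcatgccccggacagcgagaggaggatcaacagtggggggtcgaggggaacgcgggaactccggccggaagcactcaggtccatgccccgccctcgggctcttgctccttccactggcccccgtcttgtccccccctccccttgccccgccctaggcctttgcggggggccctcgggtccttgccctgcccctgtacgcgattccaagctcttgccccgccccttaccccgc
Mafg (chr11:120633548-120633797, minus strand): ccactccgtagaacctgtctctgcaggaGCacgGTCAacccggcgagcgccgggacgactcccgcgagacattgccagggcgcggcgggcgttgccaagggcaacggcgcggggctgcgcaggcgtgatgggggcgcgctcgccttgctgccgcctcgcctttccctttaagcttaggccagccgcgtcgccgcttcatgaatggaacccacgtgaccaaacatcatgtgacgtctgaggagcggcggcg
Mafk (chr5:139791286-139791535, plus strand): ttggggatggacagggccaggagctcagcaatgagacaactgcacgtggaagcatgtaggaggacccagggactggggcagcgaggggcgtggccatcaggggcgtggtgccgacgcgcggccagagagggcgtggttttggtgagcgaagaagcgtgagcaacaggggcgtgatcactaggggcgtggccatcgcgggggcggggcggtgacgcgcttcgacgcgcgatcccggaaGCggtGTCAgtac
The match begins 240 bases before the start in Nfe2l2, on the strand of the gene. It begins 222 bases before the start in Mafg and 13 bases before it in Mafk, in both on the other strand. The windows of Nfe2l1, Keap1, Cul3 and Bach1 do not hold these letters. A match describes the sequence only.

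Nfe2l1 (chromosome 11, 96817414 to 96829968, minus strand) was lower in Nrf2-KO mice in both settings. Its levels were 5.88 TPM at the lowest, 8.65 at the median and 9.58 at the highest in GC-WT mice, and 3.33, 4.46 and 6.75 in GC-KO mice. After flight they were 4.17, 5.32 and 9.38 TPM in WT mice, and 2.18, 2.46 and 3.19 in Nrf2-KO mice. On the ground the genotypes overlapped, with 4 of 6 GC-KO mice below all GC-WT mice. After flight all 6 FL-KO mice were below all 6 FL-WT mice, as held for 20.6% of all tested genes. Nfe2l1 fell by 0.71 (SE 0.162, limma adjusted p = 0.00143) on the ground and by 0.93 (SE 0.162, limma adjusted p = 4.42e-05) after flight. Relative to the median of all genes these were -0.49 and -0.68. With the GC content and length trend removed they were -0.10 (limma adjusted p = 0.0921) and -0.14 (limma adjusted p = 0.0141). The relative of Nrf2 thus showed no higher RNA level in the absence of Nrf2 under any of these settings.

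Keap1 (chromosome 9, 21229730 to 21239361, minus strand), the adaptor that binds Nrf2, separated the 2 genotypes in both settings. GC-WT mice ranged from 6.83 to 8.97 TPM with a median of 7.68, and GC-KO mice from 3.55 to 6.53 with a median of 4.09. FL-WT mice ranged from 4.52 to 9.13 with a median of 5.02, and FL-KO mice from 1.77 to 2.84 with a median of 2.58. In each setting the highest Nrf2-KO mouse lay under the lowest WT mouse, as it did for 9.15% and 20.6% of all tested genes. The exact two-sided permutation p was 0.00216 in each, the smallest that 6 against 6 can give, in a family of 32 such tests on these genes. Keap1 fell by 0.68 (SE 0.144, limma adjusted p = 0.000859) in GC-KO vs. GC-WT and by 0.97 (SE 0.144, limma adjusted p = 7.36e-06) after flight. The values on scaled libraries were -0.37 and -0.63, both past the threshold. Without the GC content and length trend they were -0.045 (limma adjusted p = 0.506) and -0.073 (limma adjusted p = 0.248). The longest Keap1 transcript has a GC content of 58%, the highest of the 8 genes.

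Cul3 (chromosome 1, 80264923 to 80340480, minus strand), the scaffold of the ligase that Keap1 serves, has the lowest GC content of the 8, at 38.5%. WT mice had 17.7 ± 2.94 TPM (SD, n = 6) on the ground and 15.2 ± 4.44 after flight, and Nrf2-KO mice 14.0 ± 3.30 and 10.6 ± 1.57. Each pair of groups overlapped, with exact two-sided permutation p from 0.0649 to 0.310. The log2 difference was -0.34 (limma adjusted p = 0.105) in GC-KO vs. GC-WT and -0.44 (limma adjusted p = 0.0302) in FL-KO vs. FL-WT. The latter was at an adjusted p of 0.105 by limma without FL-WT mouse 07, and the former passed the threshold when any 1 of 7 particular libraries was left out (limma adjusted p from 0.0395 to 0.0968). After median-of-ratios scaling they were -0.0016 and -0.026, neither past the threshold, and after removal of the GC content and length trend -0.28 (limma adjusted p = 0.00869) and -0.34 (limma adjusted p = 0.00147). With the setting, the call thus moved between the 2 partners: Keap1 was called lower on scaled values, and Cul3 on values without the GC content and length trend. Gm37902, which overlaps Cul3 on the same strand, had a mean of 2.04 TPM against 14.4 for Cul3, so a part of those reads could be assigned either way.

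Bach1 (chromosome 16, 87698945 to 87733346, plus strand), which competes with Nrf2 for small Maf partners and sites, had 9.72 ± 0.860 TPM (SD, n = 6) in GC-WT mice, against 6.74 ± 1.42 in GC-KO mice. After flight the values were 7.91 ± 2.25 and 4.87 ± 0.719 TPM. In both settings 5 of 6 Nrf2-KO mice lay under the lowest WT mouse, with an exact two-sided permutation p of 0.00866. Bach1 fell by 0.48 (limma adjusted p = 0.00809) on the ground and by 0.57 (limma adjusted p = 0.00156) after flight, which is -0.26 and -0.32 relative to the median of all genes. It remained lower after median-of-ratios scaling, at -0.17 (limma adjusted p = 0.0359) and -0.19 (limma adjusted p = 0.0134). With the GC content and length trend removed the ground value was -0.066 (limma adjusted p = 0.292) and the flight value -0.13 (limma adjusted p = 0.0301). The flight difference in WT mice was -0.30 (limma adjusted p = 0.102), and it was 0.0089 after median-of-ratios scaling.

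The small Maf genes were at very different levels. Mafg (chromosome 11, 120625117 to 120633600, minus strand) was the most abundant of the 8 genes in GC-WT and GC-KO mice, Mafk (chromosome 5, 139791513 to 139802653, plus strand) was intermediate, and Maff (chromosome 15, 79346621 to 79359076, plus strand) was nearly absent. Maff had between 0.04 and 0.28 TPM in the 24 libraries, with group means of 0.118 to 0.128 TPM and overlap of every pair of groups. Its exact two-sided permutation p ranged from 0.846 to 1.0, and levels this low leave little room to see a difference.

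Mafg had 18.6 TPM at the lowest, 23.5 at the median and 29.0 at the highest in GC-WT mice, and 10.8, 13.0 and 19.8 in GC-KO mice. FL-WT mice had 13.2, 17.2 and 24.8 TPM, and FL-KO mice 7.24, 7.9 and 10.6. On the ground only the highest GC-KO mouse reached the WT range. After flight all 6 FL-KO mice were below all 6 FL-WT mice, which held for 20.6% of all tested genes. Mafg fell by 0.72 (SE 0.151, limma adjusted p = 0.000814) in GC-KO vs. GC-WT and by 1.01 (SE 0.151, limma adjusted p = 7.63e-06) in FL-KO vs. FL-WT. The second value lies just past the fold change limit of a DEG, and leaving out FL-WT mouse 03, 07 or 08 or FL-KO mouse 01, 02 or 09 took it below that limit, to between -0.91 and -0.99, with limma adjusted p from 3.08e-05 to 4.55e-05. Without FL-WT mouse 05 the DEGs were 4, since Nfe2l1 (-1.01) and Keap1 (-1.03) also passed that limit. Without the GC content and length trend it was -0.19 (limma adjusted p = 0.0279), and the ground value was -0.080 (limma adjusted p = 0.381), not past the threshold. The Mafg gene body is overlapped on the same strand by Sirt7, at a mean of 14.9 TPM against 16 for Mafg, so reads of the 2 genes could be assigned either way. Sirt7, named here for this overlap, had a log2 fold change of -0.45 (limma adjusted p = 0.00681) on the ground and -0.70 (limma adjusted p = 6.12e-05) after flight.

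Mafk was the one of the 8 genes with its largest difference in flight. It had 8.98 TPM at the lowest, 11.7 at the median and 13.8 at the highest in GC-WT mice, and 4.89, 6.42 and 9.89 in FL-WT mice. In Nrf2-KO mice it had 6.08, 8.5 and 12.9 TPM on the ground and 3.71, 4.31 and 5.1 after flight. Of 6 FL-WT mice, 5 were below all GC-WT mice, so the groups overlapped. All 6 FL-WT mice were below all 6 GC-WT mice for 4.19% of tested genes, and Mafk was not among these. The share of genes with 5 of 6 FL-WT mice below was not counted. All 6 FL-KO mice were below all 6 GC-KO mice, as held for 18.4% of tested genes. Mafk fell by 0.72 (SE 0.146, limma adjusted p = 0.00115) in FL-WT vs. GC-WT and by 0.86 (SE 0.146, limma adjusted p = 0.000123) in FL-KO vs. GC-KO. Of all tested genes, 4.28% and 4.22% had a lower value. With median-of-ratios scaling the differences were -0.40 (limma adjusted p = 0.00211) and -0.49 (limma adjusted p = 0.000306), and with the GC content and length trend removed -0.40 (limma adjusted p = 0.000748) and -0.32 (limma adjusted p = 0.00409). Mafk was the only one of the 7 genes past the threshold in FL-WT vs. GC-WT under both of these settings. Megakaryocyte markers also had lower medians after flight. The summed TPM of 8 markers had a median of 194 in GC-WT and 123 in FL-WT mice, and of 168 and 79.7 in the Nrf2-KO groups. Ranges overlapped, at 97.6 to 321 in GC-WT and 51.2 to 170 in FL-WT mice. B lineage markers fell likewise at the median, from 290 to 160 in WT and from 192 to 112 in Nrf2-KO mice. By flow cytometry of bone marrow, the paper found no substantial change in megakaryocyte frequency. It found significantly fewer B-progenitors after flight in both genotypes, and little change in mature B cells. The part of these cell types in the result was not tested. In bulk RNA, fewer cells of a type and less RNA per cell cannot be told apart.

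By genotype, the direction of Mafk depended on the setting. Its log2 difference was -0.39 (limma adjusted p = 0.0361) in GC-KO vs. GC-WT and -0.53 (limma adjusted p = 0.00401) in FL-KO vs. FL-WT on TPM as deposited. The ground value did not pass without GC-KO mouse 04 (limma adjusted p = 0.12). After median-of-ratios scaling the values were -0.066 (limma adjusted p = 0.546) and -0.16 (limma adjusted p = 0.121). With the GC content and length trend removed they were above 0, at 0.18 (limma adjusted p = 0.0631) and 0.26 (limma adjusted p = 0.0068). Mafk was the only one of the 7 genes that was higher in Nrf2-KO mice past the threshold under either setting, against 25.6% of all genes on the ground and 33.6% after flight without that trend. The plot of fold changes under the 3 settings shows these shifts beside the stable position of Nfe2l2.

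**Figure D2:**
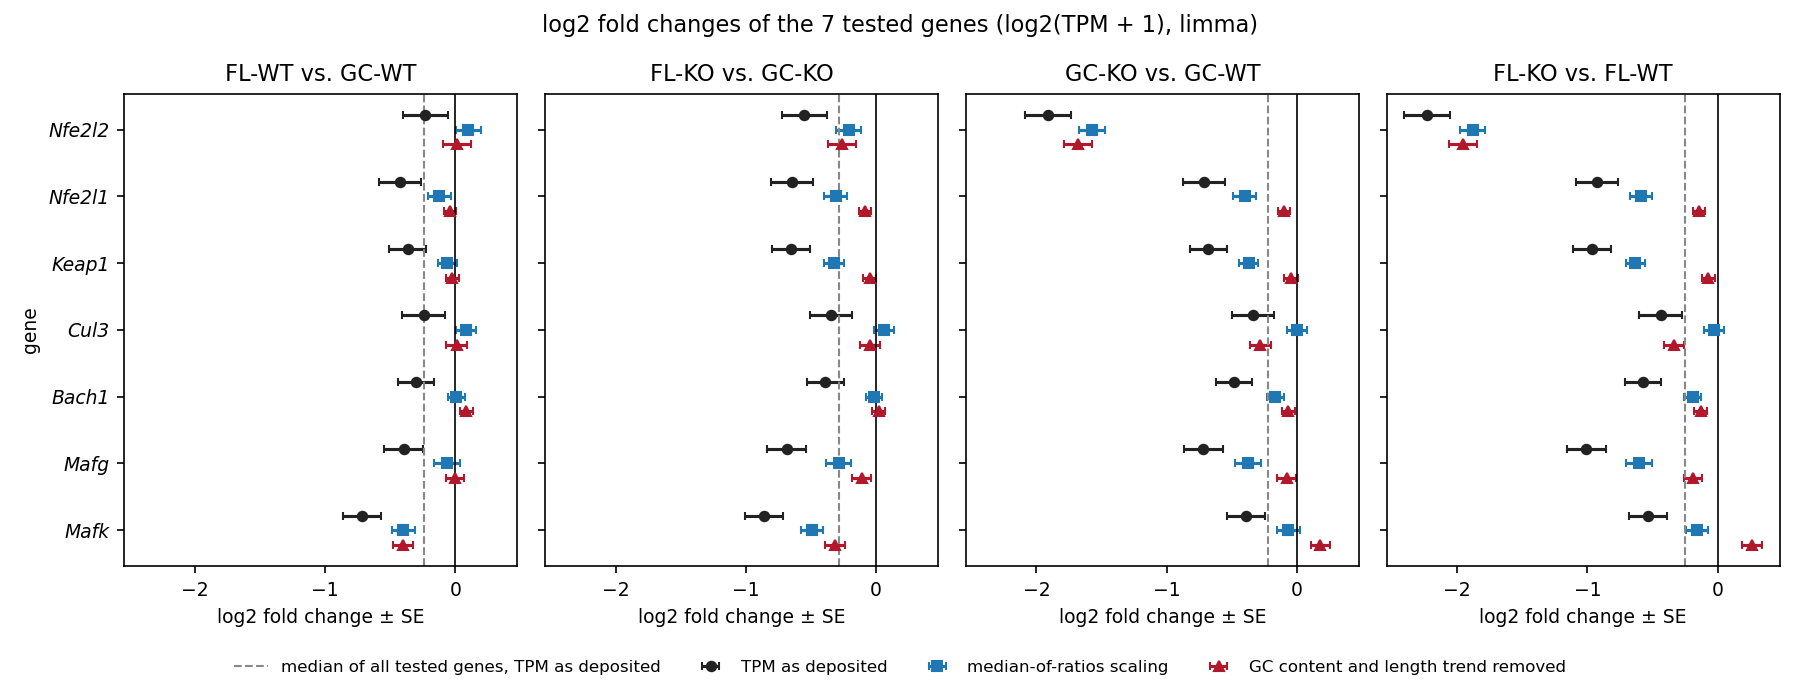
Log2 fold change (x axis, log2(TPM + 1) scale, bars are the SE from limma) of the 7 tested genes in the 4 comparisons, on TPM as deposited (black), after median-of-ratios scaling (blue) and without the trend with GC content and length (red); the dashed line is the median of all 12373 genes on TPM as deposited. Nfe2l2 stays between -1.57 and -2.23 in the genotype comparisons, Keap1 moves from -0.97 to -0.073 in FL-KO vs. FL-WT, and Mafk in the genotype comparisons passes to the right of 0 in red.

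Under median-of-ratios scaling, 5 of 7 genes were lower in Nrf2-KO mice on the ground and 5 of 7 after flight, against 27.8% and 31.2% of all tested genes. These were Nfe2l2, Nfe2l1, Keap1, Bach1 and Mafg in both. With the GC content and length trend removed, 3 of 7 were lower on the ground (Nfe2l2, Nfe2l1 and Cul3), against 21.4% of all genes, and 5 of 7 after flight (Nfe2l2, Nfe2l1, Cul3, Bach1 and Mafg), against 22.3%. An increase of another gene of the group in the absence of Nrf2 was therefore seen for Mafk alone, and under 1 of these 3 settings. Each group enters 2 of the 4 comparisons, so their values are not independent.

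The call for flight in WT mice rested on few libraries. The 4 genes past the threshold were Nfe2l1 (-0.43, limma adjusted p = 0.0485), Keap1 (-0.37, limma adjusted p = 0.0559), Mafg (-0.40, limma adjusted p = 0.0491) and Mafk. FL-WT mouse 07 had the highest value of its group for 7 of 7 tested genes, with a size factor of 1.41, and FL-WT mouse 05 had the lowest for 6 of 7, with a size factor of 0.737. Without FL-WT mouse 07 the count was 7, and without FL-WT mouse 05 or 06 it was 1. It was 2 without FL-WT mouse 10 or GC-WT mouse 06, 07 or 08. Bach1, at an adjusted p of 0.102, passed the threshold when any 1 of 7 particular libraries was left out (limma adjusted p from 0.0167 to 0.0979). In FL-KO vs. GC-KO, Bach1 did not pass without GC-KO mouse 11 (limma adjusted p = 0.101), and Cul3, at an adjusted p of 0.0856, did not pass when any 1 of 6 particular libraries was left out (limma adjusted p from 0.137 to 0.229). In GC-KO mice, mouse 11 was the highest for 7 of 7 genes and mouse 04 the lowest for 6 of 7. Libraries thus tended to be high or low for all of these genes together. No gene of the 7 was shown to differ between genotypes in its response to flight: the interaction ranged from -0.32 for Nfe2l2 to -0.088 for Bach1, with limma adjusted p = 1.0 and unadjusted p from 0.171 to 0.662. Of all 12373 genes, 428 were past an unadjusted p of 0.05 in this test. After median-of-ratios scaling the interaction was -0.31 (SE 0.138, limma adjusted p = 0.414) for Nfe2l2 and -0.26 (SE 0.105, limma adjusted p = 0.363) for Keap1. With 6 mice per group, a difference of this size is not excluded.

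Within a library, ratios of these genes do not depend on scaling between libraries, and they were taken as descriptions with no test. They can still carry a trend with GC content where the 2 genes differ in it. Nfe2l2 and Bach1 have nearly the same GC content, at 46.8% and 46.7%. Their TPM ratio, chosen after the values were seen, had a geometric mean of 2.17 on the ground and 2.32 after flight in WT mice, against 0.731 and 0.618 in Nrf2-KO mice. Nfe2l2 exceeded Bach1 in every WT mouse and was below it in every Nrf2-KO mouse. The ratio of Nfe2l2 to Keap1 was 2.71 on the ground and 3.07 after flight in WT mice, against 1.09 and 1.20 in Nrf2-KO mice. These 2 genes differ in GC content, at 46.8% and 58%.

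Keap1 and Nfe2l1, with a GC content of 58% and 54.4%, kept nearly equal levels in all groups. Their ratio, also chosen after the values were seen, was 0.953 on the ground and 0.999 after flight in WT mice, and 0.976 and 0.961 in Nrf2-KO mice. The ratio of Keap1 to Cul3 was 0.443 and 0.395 in the WT groups and 0.326 and 0.235 in the Nrf2-KO groups, and the 2 genes differ widely in GC content. Bach1 to Nfe2l1 was 1.19, 1.32, 1.45 and 1.87 in the same order, and these 2 also differ in GC content, at 46.7% and 54.4%. With the GC content and length trend removed, Bach1 and Nfe2l1 were at -0.066 and -0.10 by genotype on the ground. After flight they were at -0.13 and -0.14. The sum of the 3 small Maf genes was 4.31 times Nfe2l1 on the ground and 4.20 times after flight in WT mice, and 4.93 and 4.91 times in Nrf2-KO mice.

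The make-up of the small Maf sum differed between groups. Mafg made 66.4% ± 2.07 (SD, n = 6) of it on the ground and 72.0% ± 1.76 after flight in WT mice, and 61.1% ± 1.52 and 64.7% ± 3.08 in Nrf2-KO mice. The range in FL-WT mice, 70% to 74.0%, lay above that in GC-WT mice, 63.6% to 69.2%, which in turn lay just above that in GC-KO mice, 59.5% to 63.4%. FL-KO mice ranged from 60.4% to 67.1% and overlapped with GC-KO mice. Mafk made most of the rest, with 33.2%, 27.5%, 38.4% and 34.2% in the 4 groups, and Maff between 0.359% and 1.03%. Mafg and Mafk transcripts are similar in GC content, at 54.9% and 56.2%.

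**Figure D3:**
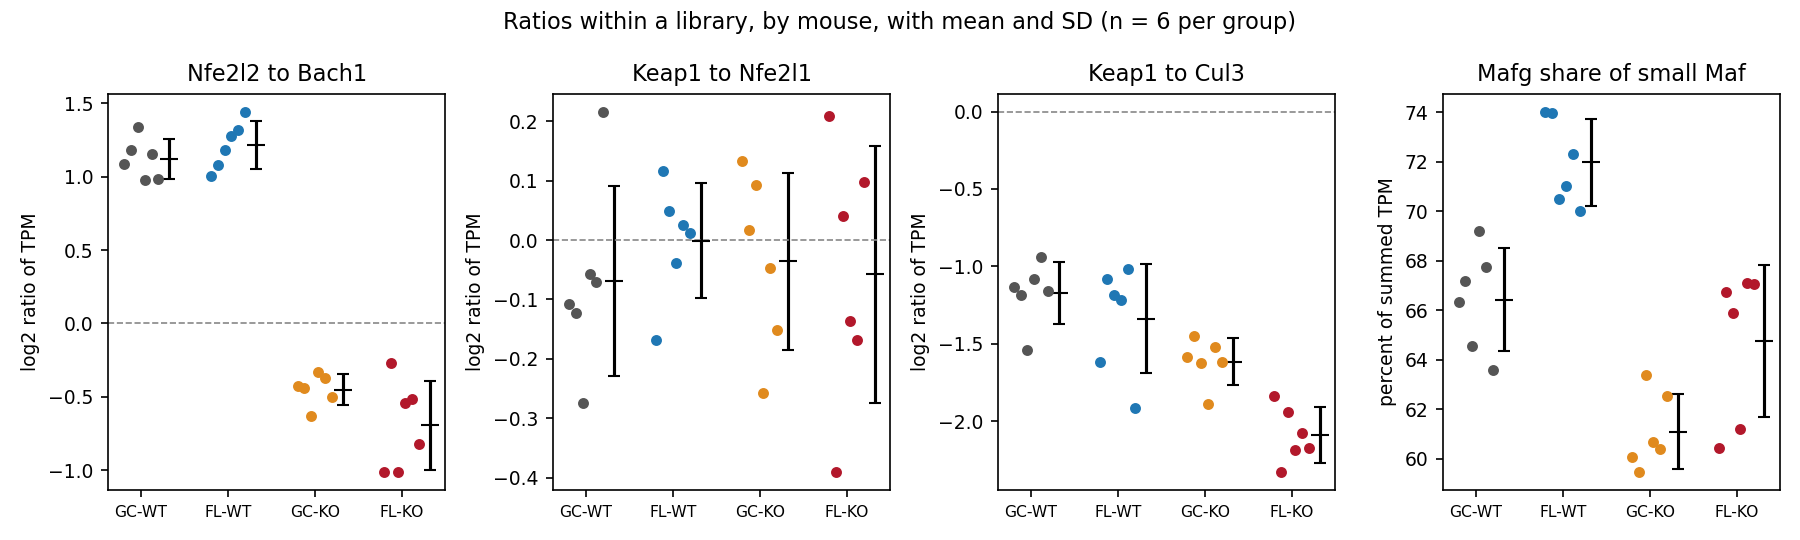
Ratios within a library by mouse (points), with mean and SD of 6 mice per group: the log2 ratio of TPM of Nfe2l2 to Bach1, Keap1 to Nfe2l1 and Keap1 to Cul3, and the percent of summed small Maf TPM that is Mafg. The Nfe2l2 to Bach1 ratio is above 0 in all WT and below 0 in all Nrf2-KO mice, Keap1 to Nfe2l1 stays near 0 in all groups, and the Mafg share is highest in FL-WT mice, at 70% to 74.0%.

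In order of level, GC-WT mice had Mafg, Nfe2l2, Cul3, Mafk, Bach1, Nfe2l1, Keap1 and Maff, as TPM per transcript length. Mafg, Nfe2l2 and Cul3 overlapped in their ranges there, as did Mafk with Bach1, Bach1 with Nfe2l1 and Nfe2l1 with Keap1, while Maff stood apart from all. In FL-WT mice the first places were Nfe2l2, Mafg and Cul3, again with overlapping ranges, and then Bach1 and Mafk, which also overlapped. In GC-KO mice the order was Mafg, Cul3, Mafk, Bach1, Nfe2l2, Nfe2l1, Keap1 and Maff, so that Nfe2l2 moved from the second to the fifth place, among genes whose ranges it overlapped. In FL-KO mice Cul3 led, at 8.9 to 12.4 TPM, followed by Mafg at 7.24 to 10.6, and Bach1, Mafk, Nfe2l2, Nfe2l1, Keap1 and Maff came after them.

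Across the 24 libraries, the 7 tested genes varied together. On log2(TPM + 1), Pearson r was 0.98 for Nfe2l1 with Keap1 and 0.97 for Keap1 with Mafg, and with group means removed 0.91 and 0.84. The lowest r among the 7 was 0.65, for Nfe2l2 with Mafk. Since all points share the library and its scale, these values describe the libraries as much as the genes. Genes with the most similar pattern were sought among the 5024 genes that averaged at least 5 TPM. For Nfe2l2 they were Txnrd1 (r = 0.96), which encodes thioredoxin reductase and is a known Nrf2 target, Itgam (r = 0.96), the integrin chain of myeloid cells, and Sort1 (r = 0.95). The median r of all these genes with Nfe2l2 was 0.61. After median-of-ratios scaling the median was -0.23, Itgam (r = 0.93) and Sort1 (r = 0.93) took ranks 2 and 3 of 5024, and Txnrd1 (r = 0.89) was at rank 153.

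For the other genes the closest were Hnrnpul1, Taok3 and Dnm2 with Nfe2l1 (r = 0.99 each), Poldip3, U2af2 and Phc2 with Keap1 (r = 0.99 each), and Csnk2a1, Rps6ka3 and Cdk19 with Cul3. With Bach1 they were Fam160b1, Lats2 and Ppp4r1, with Mafg Atg9a, Sbf1 and Pitpnm1, and with Mafk Fzr1, Otud5 and D17Wsu92e. Poldip3 and Csnk2a1 were also the closest to Keap1 (r = 0.97) and Cul3 (r = 0.76) after median-of-ratios scaling. Maff, at its low level, had Igkv10-96, Fabp4 and Rps26-ps1.

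Txnrd1 was 8.67 TPM at the lowest, 10.6 at the median and 11.9 at the highest in GC-WT mice and 6.54, 8.54 and 13.6 in FL-WT mice. In Nrf2-KO mice it was 3.7, 4.7 and 7.02 TPM on the ground and 3.5, 4.11 and 4.67 after flight. Genotypes did not overlap on the ground or after flight, with all Nrf2-KO mice lower, as held for 9.15% and 20.6% of all tested genes. Txnrd1 was picked here for its likeness to Nfe2l2 over these same libraries, where Nfe2l2 separates the genotypes. Its separation and its adjusted p are therefore no independent result. Txnrd1 fell by 0.94 (limma adjusted p = 0.000255) and by 0.97 (limma adjusted p = 7.68e-06). It was still lower after removal of the GC content and length trend, at -0.55 and -0.50. The plot of Txnrd1 against Nfe2l2 gives both genes by mouse.

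**Figure D4:**
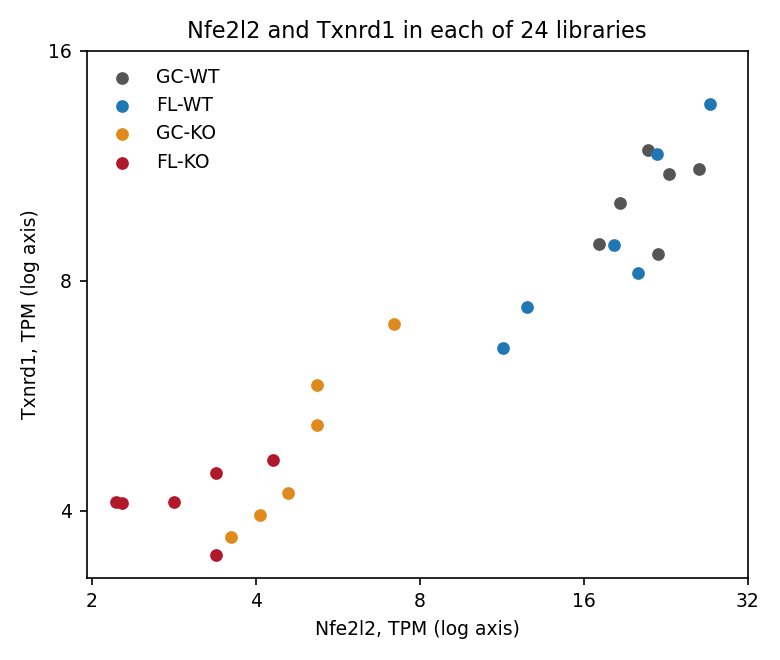
TPM of Txnrd1 (y, log axis) against TPM of Nfe2l2 (x, log axis) in each of 24 libraries, coloured by group. The 12 Nrf2-KO libraries lie at the lower left, the GC-KO ones at 3.6 to 7.18 TPM of Nfe2l2, and GC-WT and FL-WT libraries overlap at the upper right.

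The wider pathway was described with gene lists, by counts and medians and with no set test. Of other genes of the CNC and Bach families, Nfe2 (NF-E2 p45), with 82.3 ± 12.3 TPM (SD, n = 6) in GC-WT mice, was above all 8 genes in mean level, and Nfe2l3 did not pass the filter. Nfe2 fell by 0.36 (limma adjusted p = 0.075) in GC-KO vs. GC-WT, by 0.52 (limma adjusted p = 0.00884) in FL-KO vs. FL-WT, by 0.48 (limma adjusted p = 0.0272) in FL-WT vs. GC-WT and by 0.65 (limma adjusted p = 0.00315) in FL-KO vs. GC-KO. After median-of-ratios scaling the genotype values of Nfe2 were -0.0072 (limma adjusted p = 0.938) on the ground and -0.088 (limma adjusted p = 0.261) after flight, so that neither call was kept. The ground value by genotype on TPM as deposited did not pass when any 1 of 7 particular libraries was left out (limma adjusted p from 0.108 to 0.182). Flight values of Nfe2 are given on TPM as deposited only, beside all-gene medians of -0.24 in WT and -0.29 in Nrf2-KO mice. Bach2, a repressor of B and T lymphocytes related to Bach1, fell by 1.07 (limma adjusted p = 0.000537) on the ground and by 0.74 (limma adjusted p = 0.00509) after flight by genotype. With the GC content and length trend removed, Bach2 was at -0.18 (limma adjusted p = 0.241) after flight, not past the threshold. B lineage markers moved with it, with a median summed TPM of 10 markers of 290 in GC-WT and 160 in FL-WT mice and of 192 and 112 in the Nrf2-KO groups, and their part in the result was not tested.

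Of 14 genes of Nrf2 degradation and Keap1 partners, 8 were lower and 0 higher at an adjusted p under 0.1 in GC-KO vs. GC-WT, and 9 lower and 0 higher in FL-KO vs. FL-WT, against 42.9% and 47.2% of all genes lower. After median-of-ratios scaling, 27.8% of all genes were lower and 29.8% higher on the ground, and 31.2% and 35.2% after flight. On these values the list's balance was not kept, with 6 lower and 3 higher on the ground, and 4 and 4 after flight. On TPM as deposited, 3.04% of all genes on the ground and 8.36% after flight were DEGs lower in Nrf2-KO mice. Those of the list were Syvn1 (Hrd1), an endoplasmic reticulum ligase that degrades Nrf2, which fell by 1.23 (limma adjusted p = 0.000375) and 1.34 (limma adjusted p = 8.55e-06), and after flight also Dpp3, a Keap1 binding protein, which fell by 1.22 (limma adjusted p = 6.34e-06). Among 7 genes of Nrf1 processing, 5 were lower at an adjusted p under 0.1 in each genotype comparison, against 42.9% and 47.2% of all genes. After median-of-ratios scaling 4 were lower and 1 higher on the ground, and 4 and 2 after flight, against the scaled all-gene shares above. Those lower on TPM as deposited included Vcp, which extracts Nrf1 from the endoplasmic reticulum and fell by 1.36 (limma adjusted p = 8.29e-06) in FL-KO vs. FL-WT, and Hcfc1, a cofactor that fell by 1.13 (limma adjusted p = 0.000594) on the ground.

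Of 12 genes of coactivators and inhibitors of Nrf2 DNA binding, 4 were DEGs, all lower, on the ground and 7 after flight, against 3.04% and 8.36% of all genes as DEGs lower in Nrf2-KO mice. After flight Jund fell by 1.65 (limma adjusted p = 7.86e-07), Rara by 1.63 (limma adjusted p = 7.39e-06), and Fosl2 by 1.41 (limma adjusted p = 3.71e-05). Med16, a Mediator subunit, fell by 1.38 (limma adjusted p = 1.37e-06), and Smarca4, the ATPase of the SWI/SNF complex, fell by 1.27 (limma adjusted p = 4.86e-05). The median log2 fold change of this list was -0.81 on the ground and -1.14 after flight, beside -0.22 and -0.25 for all genes. Median-of-ratios scaling moved it to -0.52 and -0.79. Without the GC content and length trend it was -0.29 and -0.39.

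Of 30 Nrf2 target genes, 27 were tested, and 18 were lower and 0 higher at an adjusted p under 0.1 in GC-KO vs. GC-WT, and 21 and 0 in FL-KO vs. FL-WT, against 42.9% and 47.2% of all genes lower. After median-of-ratios scaling 10 were lower and 5 higher on the ground, and 12 lower and 4 higher after flight. Of all genes, 27.8% were then lower and 29.8% higher on the ground, and 31.2% and 35.2% after flight. The list's median was -0.44 and -0.47, beside -0.22 and -0.25 for all genes, and -0.12 and -0.088 after median-of-ratios scaling. Each genotype comparison had 5 DEGs of this list, all lower. Of all genes, 3.04% on the ground and 8.36% after flight were DEGs lower in Nrf2-KO mice. G6pdx and Pgd of the pentose phosphate pathway, Gstm1 of glutathione conjugation and Osgin1 were DEGs in both, with Cat (catalase, named after its values were seen) as the fifth on the ground and Tkt, also of the pentose phosphate pathway, as the fifth after flight. Cat fell by 1.06 (limma adjusted p = 0.000411) on the ground. In FL-KO vs. FL-WT, G6pdx fell by 1.71 (limma adjusted p = 2.21e-06), Gstm1 by 1.63 (limma adjusted p = 3.08e-06), Pgd by 1.62 (limma adjusted p = 3.69e-06), Tkt by 1.59 (limma adjusted p = 1.29e-06) and Osgin1 by 1.40 (limma adjusted p = 4.80e-06). Srxn1, sulfiredoxin, fell by 0.83 (limma adjusted p = 9.07e-06) on the ground and by 0.63 (limma adjusted p = 2.18e-05) after flight, a value of -0.0053 (limma adjusted p = 0.975) once the GC content and length trend was removed. Nqo1 fell by 0.37 (limma adjusted p = 0.0203) and 0.33 (limma adjusted p = 0.0334), and after median-of-ratios scaling it was at -0.12 and -0.088, not past the threshold.

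The glutathione synthesis genes Gclc and Gclm differed more by flight than by genotype in value, as did Nqo1, which fell by 0.58 (limma adjusted p = 0.0019) in FL-WT vs. GC-WT and by 0.54 (limma adjusted p = 0.00203) in FL-KO vs. GC-KO. Gclm was at 53.1 TPM in GC-WT and 45.8 in GC-KO mice (log2 fold change -0.19, limma adjusted p = 0.363) and fell by 0.61 (limma adjusted p = 0.00806) in FL-WT vs. GC-WT and by 0.84 (limma adjusted p = 0.000413) in FL-KO vs. GC-KO. Its ground value turned to 0.16 after median-of-ratios scaling. Gclc fell by 0.40 (limma adjusted p = 0.0551) by genotype on the ground, a call lost when any 1 of 5 particular libraries was left out (limma adjusted p from 0.102 to 0.162), and by 0.81 (limma adjusted p = 0.00106) in FL-WT vs. GC-WT. After median-of-ratios scaling its ground value by genotype was -0.065. Srxn1 went the other way in value. It fell by 0.36 (limma adjusted p = 0.0119) in FL-WT vs. GC-WT and by 0.16 (limma adjusted p = 0.201) in FL-KO vs. GC-KO, against 0.83 and 0.63 by genotype. Flight values of these genes are given on TPM as deposited only, beside all-gene medians of -0.24 in WT and -0.29 in Nrf2-KO mice. The size of the flight and genotype effects was not compared by a test.

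Of 31 proteasome genes, known as Nrf1 targets, 10 were lower and 0 higher in GC-KO vs. GC-WT and 16 and 0 in FL-KO vs. FL-WT, against 42.9% and 47.2% of all genes. Their median was -0.088 and -0.29. After median-of-ratios scaling 19 were higher and 4 lower on the ground, and 14 and 4 after flight. Of all genes, 29.8% were then higher and 27.8% lower on the ground, and 35.2% and 31.2% after flight. The direction of this list thus depended on the setting. Psmd3, the one DEG of the list, fell by 1.18 (limma adjusted p = 9.74e-06) in FL-KO vs. FL-WT, where 8.36% of all genes were DEGs lower.

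**Figure D5:**
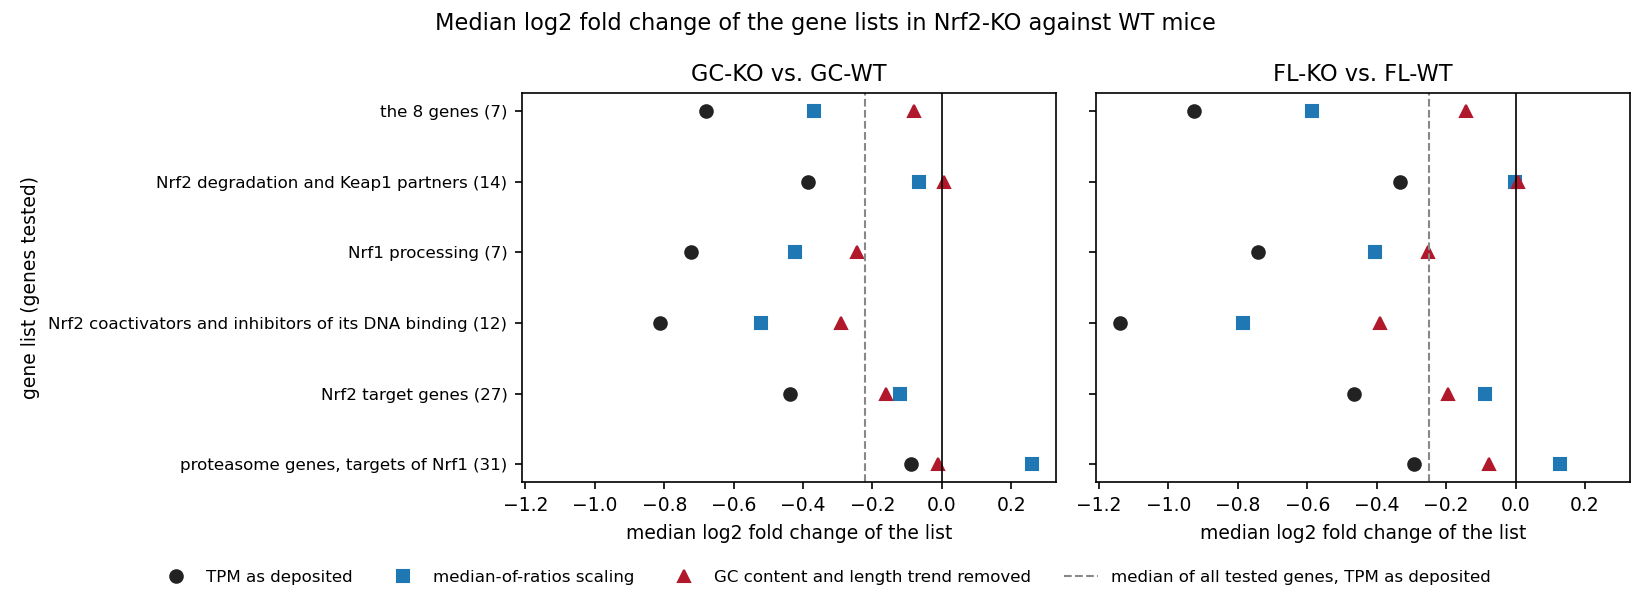
Median log2 fold change (x axis) of each gene list (y axis, with the number of genes tested) by genotype on the ground (left) and after flight (right), on TPM as deposited (black), after median-of-ratios scaling (blue) and without the GC content and length trend (red), with the median of all genes on TPM as deposited dashed. The list of coactivators and inhibitors is lowest in black, at -0.81 and -1.14, and the proteasome list moves above 0 in blue.

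Of 56 annotated genes within 1 Mb of Nfe2l2, 7 were tested and 0 were DEGs by limma in either genotype comparison. Among all tested genes, 3.04% on the ground and 8.36% after flight were DEGs lower in Nrf2-KO mice, so 7 genes are too few to set this region apart. The log2 fold changes of the 7 on the ground ran from -0.59 for Rbm45 (limma adjusted p = 0.00392) to 0.45 for Rps6-ps4 (limma adjusted p = 0.0191). Granulocyte markers had a median summed TPM of 41295 in GC-WT and 60570 in FL-WT mice, and of 49712 and 51859 in the Nrf2-KO groups. In the same order erythroid markers had 185413, 166999, 208105 and 196052, and T and NK markers 24.2, 24.2, 20.7 and 19.2. A sum of TPM follows its most abundant markers and does not show how each marker changed. The paper reports that flight lowered a group of erythroid genes in bone marrow, more so without Nrf2. Among them was Slc4a1, which is part of the erythroid sum here. The summed TPM of 7 monocyte and macrophage markers, in the same order, had a median of 502, 586, 373 and 335, with both Nrf2-KO medians below both WT medians and group ranges that overlapped on the ground and after flight. The part of these cell types in the levels of Nfe2l2 and its partners was not tested.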

How the data were processed

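The authors isolated RNA with ISOGEN-LS, made libraries with MGI's directional RNA kit, sequenced them on the DNBSEQ-G400, and ran STAR 2.6.1 on mm10 (GRCm38) and RSEM 1.3.1 for TPM, per the labels, the submitters' processing notes and the methods. Their gene annotation release is not given in the sources used here. The deposited table gives TPM of 54752 genes in 24 libraries, each summing to 999999.5 to 1000001.1, with no scaling between libraries. It holds no read counts, so depth is unknown and no counting interval can be given.

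Groups were taken from the sample titles. Values were log2(TPM + 1) of the 12373 genes with a TPM above 1 in at least 1 library, fitted in R 4.3.3 by limma 3.58.1, all 24 libraries together and each group with its mean, with Benjamini-Hochberg adjustment over all tested genes. Adding 1 understates fold changes of low genes. DEGs changed at least 2-fold at an adjusted p under 0.1. TPM of single genes was compared with exact two-sided permutation tests of the rank sum, 32 in all and unadjusted. Python 3.11.15 with scipy 1.17.1, pandas 2.3.3, numpy 2.4.6 and matplotlib 3.10.9 served for the rest, and coordinates, lengths and GC content came from GENCODE M21. The fit was tested on simulated data.

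The 8 genes and the gene lists were chosen with earlier results of these data known. From the lists, the text names Nfe2, Nfe2l3, Bach2, Nqo1, Gclm, Gclc and Srxn1, and up to 5 DEGs per list of either genotype comparison with the largest change. It also names DEGs within 1 Mb of Nfe2l2, of which there were 0, and the 3 genes with the highest r with each of the 8. Rbm45, Rps6-ps4, Sirt7 and Gm37902 were added after values were seen. Alternatives were a pseudocount of 0.1, no filter, a filter over 6 libraries (TPM above 1), quantile normalization, median-of-ratios scaling, leaving out 5 small RNAs, removal of each library's trend with GC content and length (natural splines with 5 degrees of freedom), a mean-expression trend, a fit of the compared groups alone, the mouse number as a block, an adjusted p under 0.05, and each library left out in turn. Protein sequences were not analysed here, and results of 1 pathway list and 1 marker are not reported here. Monocyte and macrophage markers were summed without that marker, a choice made after the data were seen.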

Additional observations from a re-analysis of the deposited data

Results flagged for a closer look

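In each of 32 sets of 6 mice (8 genes in 4 groups), the gap of the highest or lowest mouse to its nearest neighbour was set against the range of the group, and 2 sets exceeded the critical value of Dixon's test for 6 values. Chance alone marks about 1 in 20 sets. The first was Keap1 in FL-KO mouse 02, at 1.77 TPM, below the other 5 FL-KO mice. The second was Maff in FL-KO mouse 04, at 0.28 TPM, above the other 5 mice of its group and the highest Maff value in the table. Maff, at its low level, was not in the limma fit.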

How the results depend on the processing

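Nfe2l2 was lower in Nrf2-KO mice and past both thresholds under each alternative run, with a log2 fold change between -2.12 and -1.57 in GC-KO vs. GC-WT and between -2.53 and -1.78 in FL-KO vs. FL-WT. The count of DEGs among the 7 genes in FL-KO vs. FL-WT, 2 as reported, was 4 with a pseudocount of 0.1, 1 with median-of-ratios scaling, quantile normalization or the GC content and length trend removed, and 1 to 4 with a library left out. The count at an adjusted p under 0.1 in FL-WT vs. GC-WT, 4 as reported, was 1 with each of these 3 and with a fit of the compared groups alone, and 1 to 7 with a library left out. In FL-KO vs. GC-KO it was 4, 4 and 2 in place of 7 with median-of-ratios scaling, quantile normalization and the trend removed. Directions turned as follows, on the log2 scale and in the order median-of-ratios scaling, quantile normalization, trend removed. In FL-WT vs. GC-WT, Nfe2l2 was 0.099, 0.030 and 0.0099, Cul3 was 0.084, 0.023 and 0.0096, and Bach1 was 0.0089, 3.87e-06 and 0.083. Gclm in GC-KO vs. GC-WT was 0.16, 0.035 and 0.00999. With median-of-ratios scaling, Cul3 in FL-KO vs. GC-KO was 0.060 and Gclm in FL-KO vs. FL-WT was 0.0033. With quantile normalization, Cul3 was 0.040 and Bach1 0.012 in FL-KO vs. GC-KO, Cul3 was 0.0059 in FL-KO vs. FL-WT, and the interaction was 0.018 for Cul3 and 0.012 for Bach1. With the trend removed, Bach1 was 0.018 in FL-KO vs. GC-KO, and Mafk was 0.18 by genotype on the ground, 0.26 after flight and 0.082 in the interaction. Without 5 small RNAs the interaction was 0.091 for Cul3, 0.090 for Bach1 and 0.024 for Mafk. With a library left out the interaction of Bach1 lay between -0.18 and 0.012, the latter without FL-WT mouse 07. The cause of these shifts was not tested. With the mouse number as a replicate block, 5 of 7 genes passed an adjusted p under 0.1 for flight in WT mice and 7 of 7 in Nrf2-KO mice, with Bach1 in FL-WT vs. GC-WT added (limma adjusted p = 0.0463) and no other call of these genes changed. The numbers were not shown to pair the mice. Deviations of same-numbered mice from their group means correlated at -0.026 to 0.27, above 0.1 in 7 of 12 pairs, and 3 of 12 correlated best with their own number. Depth is unknown, so a limit from counting cannot be set, and Maff lies below what these tests can resolve.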
